A study of Mus musculus with 12 samples.

Results

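The regenerating (REG) genes Reg1, Reg2, Reg3a, Reg3b, Reg3d and Reg3g were taken by symbol from a table of 48709 genes, and all 6 were among the 17294 genes with enough counts to be tested. They were described beside 3 genes of acinar cells, Cpa1, Prss2 and Cela1, which encode a carboxypeptidase, a trypsinogen and an elastase. Poly(A) RNA had been sequenced in 12 libraries of pancreatic islets from female NSG mice heterozygous for RIP-DTR ("NSG RIP-DTR Htz"). NSG is an immunodeficient strain, which lacks mature lymphocytes and keeps macrophages. RIP-DTR expresses the diphtheria toxin receptor from the rat insulin promoter, so that the toxin kills beta cells that express the receptor. All groups, controls included, carried the transgene. The groups, of 3 libraries each, were untreated mice (CTRL) and mice treated with diphtheria toxin (DT) and labelled 1, 3 or 5 DPA, taken here as days after ablation. The labels give no age. Whether the 3 libraries of a group stem from separate animals is not stated; p-values therefore reflect the spread between libraries, which may be technical.

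REG proteins are small secreted proteins with a C-type lectin fold. The first of them was cloned from regenerating islets, and in the healthy pancreas acinar cells are the main source of Reg1. Reg3b, also called pancreatitis-associated protein, is an acute-phase product of acinar cells during pancreatitis, and Reg3 genes are known targets of IL-6 family cytokines, IL-22 and the transcription factor STAT3. Since islets are isolated out of acinar tissue, a bulk islet library can hold REG RNA from either compartment.

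The 6 genes sit next to each other on chromosome 6 (build mm10, GENCODE M21), in 98.2 kb from position 78370657 to 78468872 that hold no other annotated gene. Their order is Reg3b, Reg3d, Reg3a, Reg2, Reg1 and Reg3g. Reg3d and Reg3g lie on the minus strand and the other 4 on the plus strand. Over the longest open reading frame, Reg1 and Reg2 were 78.7% identical, Reg3b and Reg3g 76.0%, Reg3a and Reg3b 73.8% and Reg3a and Reg3g 73.4%, and the other 11 pairs 54.9% to 67.2%. The longest stretch that the transcripts of any pair shared without a mismatch was 35 bases, in Reg3b and Reg3g. How reads in such stretches were assigned is not given in the sources used here.

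The 250 bases before the start site are shown for 4 members, because the libraries set members apart in a way that the gene order does not follow: Reg3b and Reg3g, at opposite ends of the cluster, were high together in 1 library, and Reg1 and Reg3d were not. Sequences are from RefSeq (build GRCm38.p6), 5′ to 3′ on the strand of the gene. Capitals mark matches on either strand to TTCNNNGAA, or the same with 4 N (the spacings of STAT sites), and to TTTCCCA, whose reverse complement is TGGGAAA (a box of acinar PTF1 sites). The regions are chr6:78370635-78370884 (plus strand) for Reg3b, chr6:78468875-78469124 (minus strand) for Reg3g, chr6:78425733-78425982 (plus strand) for Reg1 and chr6:78378866-78379115 (minus strand) for Reg3d. The start sites used are those of RefSeq, and GENCODE M21 places some of them upstream. GENCODE M21 starts Reg3b at 78370657 and Reg1 at 78422711, so most of the Reg3b region and all of the Reg1 region lie inside the GENCODE gene. The Reg2 region, not shown, does so too.
Reg3b: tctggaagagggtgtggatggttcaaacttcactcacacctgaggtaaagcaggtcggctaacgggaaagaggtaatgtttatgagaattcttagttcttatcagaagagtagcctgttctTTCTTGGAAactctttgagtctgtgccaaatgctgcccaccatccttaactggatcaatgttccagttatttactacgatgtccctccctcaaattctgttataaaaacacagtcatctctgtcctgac
Reg3g: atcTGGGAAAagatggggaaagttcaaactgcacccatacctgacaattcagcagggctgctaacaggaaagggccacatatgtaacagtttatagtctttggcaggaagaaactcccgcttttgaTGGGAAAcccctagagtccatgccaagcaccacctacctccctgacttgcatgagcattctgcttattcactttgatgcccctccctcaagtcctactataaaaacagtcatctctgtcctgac
Reg1: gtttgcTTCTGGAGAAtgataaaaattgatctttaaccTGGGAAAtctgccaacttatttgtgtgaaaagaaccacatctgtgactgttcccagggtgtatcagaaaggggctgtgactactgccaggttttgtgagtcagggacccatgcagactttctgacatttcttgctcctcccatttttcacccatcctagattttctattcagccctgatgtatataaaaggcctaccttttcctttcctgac
Reg3d: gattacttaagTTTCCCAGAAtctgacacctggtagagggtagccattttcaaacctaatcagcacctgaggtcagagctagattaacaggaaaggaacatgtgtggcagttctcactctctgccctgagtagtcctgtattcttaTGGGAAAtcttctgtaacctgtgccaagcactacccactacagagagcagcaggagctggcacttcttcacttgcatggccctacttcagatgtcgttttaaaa
TTCNNNGAA was found in Reg3b and Reg3d, and in 7.02% of the 32851 RefSeq promoters of this length. The spacing of 4 was found in Reg1, and in 5.85% of all. TTTCCCA or TGGGAAA was found in Reg3d, Reg1 and Reg3g, and in 6.82% of all. In Reg3d the first capitalised stretch is an overlap of TTTCCCA with TTCNNNGAA. The E-box CANNTG, not capitalised, was found in all 6 members and in 66.2% of promoters. Reg2 and Reg3a held none of the capitalised motifs. Neither STAT spacing nor the PTF1 box was shared by one of the expression patterns and lacking in the other. The Reg3b and Reg3g promoters were 68.4% identical, those of Reg1 and Reg2 56.2%, and those of the other 13 pairs 46.1% to 52.4%. A match is a stretch of letters and does not show a bound site.

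Total counts ran from 29867083 to 50012558 per library. The 10 islet endocrine markers, insulin and glucagon among them, took 15.4% to 25.3% of counts, so the libraries were islet RNA as labelled. In TMM-scaled counts per 1000000, mean Ins1 was 48037.5 in CTRL and 27397.9, 38016.7 and 44784.2 at 1, 3 and 5 DPA. Mean Ins2 was 129105 in CTRL and 100165, 122496 and 115632. Insulin RNA thus stayed abundant after the toxin, and the extent of beta cell loss was not tested. Acinar RNA varied widely within groups: Cpa1, Prss2 and Cela1 together took 0.242% to 1.38% of counts in CTRL, 0.134% to 1.13% at 1 DPA, 0.103% to 0.298% at 3 DPA and 0.198% to 0.698% at 5 DPA. In bulk libraries, fewer acinar cells and less RNA per acinar cell cannot be told apart. One library, 3 DPA replicate 1, stood apart from the other 11 in 4 REG genes and is given separately throughout.

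Reg1 was the most abundant member in every library. On the length-corrected TPM scale it lay between 56.4 and 597, and in CTRL its level was 391 ± 251 TPM (mean ± SD, n = 3). There the others followed at 9.17 ± 5.42 for Reg3d, 3.13 ± 2.48 for Reg2, 2.29 ± 1.76 for Reg3b, 0.432 ± 0.601 for Reg3a and 0.279 ± 0.222 TPM for Reg3g. In that order, Reg2 and Reg3b, and likewise Reg3a and Reg3g, differed by less than their spread over libraries, and the Reg3d and Reg2 ranges overlapped. Together the 6 genes took between 0.00228% and 0.0320% of a library's counts. Reg1 alone made up 87.5% to 98.0% of REG counts in 11 libraries, and 55.8% in 3 DPA replicate 1, where Reg3b made up 24.1% and Reg2 14.1%.

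Reg1, the founding member and an abundant acinar secretory product, had levels of 190, 267 and 44.5 CPM (counts per 1000000 counts, after TMM scaling) in CTRL replicates 1 to 3. They were 190, 90.2 and 39.8 CPM at 1 DPA, 174, 69.7 and 22.3 CPM at 3 DPA and 72.7, 62.9 and 169 CPM at 5 DPA. Each group thus held libraries several-fold apart, and every treated group overlapped CTRL. The log2 fold change against CTRL was -0.65 ± 0.90 (SE) at 1 DPA, -0.91 ± 0.90 at 3 DPA and -0.72 ± 0.90 at 5 DPA (edgeR adjusted p = 0.568, 0.606 and 0.683).

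Reg3d, a less abundant member related to the islet neogenesis-associated protein, repeated this picture at a lower level. It had 4.81, 4.15 and 1.09 CPM in CTRL and 4.87, 2.22 and 0.444 CPM at 1 DPA. At 3 DPA it had 1.93, 1.05 and 0.413 CPM and at 5 DPA 0.874, 1.65 and 2.95 CPM. The groups overlapped in each comparison, and the log2 fold changes against CTRL were -0.41 ± 0.83, -1.56 ± 0.86 and -0.89 ± 0.84 (edgeR adjusted p = 0.697, 0.301 and 0.567). The acinar genes themselves did not pass the test either: Cpa1 had log2 fold changes of -0.45, -2.15 and -1.19 at 1, 3 and 5 DPA, and at 3 DPA the adjusted p of Cpa1, Prss2 and Cela1 lay between 0.192 and 0.241. DESeq2, run as an alternative, called Cpa1 and Cela1 lower at 3 DPA (adjusted p = 0.0420 and 0.0489).

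**Figure D1:**
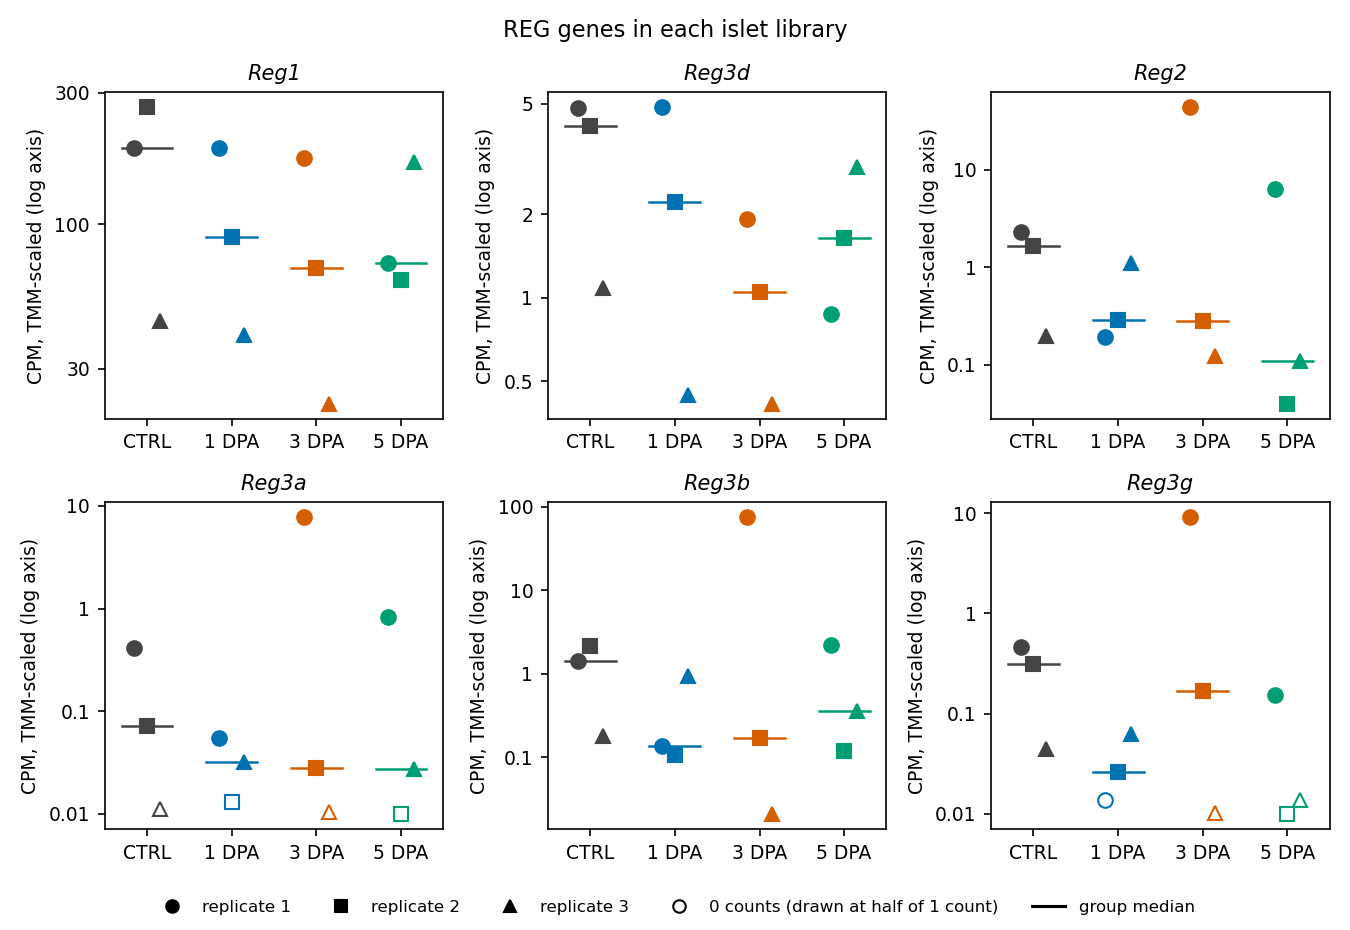
Levels of the 6 REG genes in each library, in TMM-scaled CPM on a log axis, by group, with replicates as symbols and the group median as a line (open symbols had 0 counts, and a median of 0 is not drawn). Reg1 and Reg3d spread over all groups, whereas Reg2, Reg3a, Reg3b and Reg3g are highest in 3 DPA replicate 1, at 44.0, 7.77, 75.4 and 9.14 CPM.

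The 3 acinar genes were used to ask whether a member moved with acinar RNA among libraries of the same group. The slope of a gene's log2 level on the acinar score (the mean log2 CPM of Cpa1, Prss2 and Cela1), beside the 4 group means, was 0.97 ± 0.14 (SE) for Reg3d, close to the 1.00 to 1.01 of the score's own genes (edgeR adjusted p = 0.00779). This passed the test, as did 0.364% of all genes tested (63 of 17294, all with positive slopes). For Reg1 the slope was 0.83 ± 0.20, rank 143 of 17294 by p, and it did not pass (adjusted p = 0.347). Without 3 DPA replicate 1 it was 0.80 ± 0.10 for Reg1 and 0.95 ± 0.10 for Reg3d, and both passed (adjusted p = 0.0192 and 0.00109). The Reg3d call was lost without 1 DPA replicate 1 or 1 DPA replicate 3 (adjusted p = 0.0767 and 0.157), where its slope was 0.94 and 0.93. All 22 further acinar enzymes and secreted proteins passed with positive slopes, as did 1 of 5 acinar transcription factors, Rbpjl, the PTF1 subunit of mature acinar cells (0.83 ± 0.06, adjusted p = 1.00e-05).

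The other 4 members had slopes of -0.51 ± 1.07 (Reg2), -0.05 ± 1.30 (Reg3a), -0.15 ± 1.03 (Reg3b) and 0.37 ± 1.14 (Reg3g), with edgeR adjusted p between 0.932 and 0.998. Their standard errors were 1.03 to 1.30, so a slope of 1 was not told apart from a slope of 0. The plot against acinar RNA shows each member by library.

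**Figure D2:**
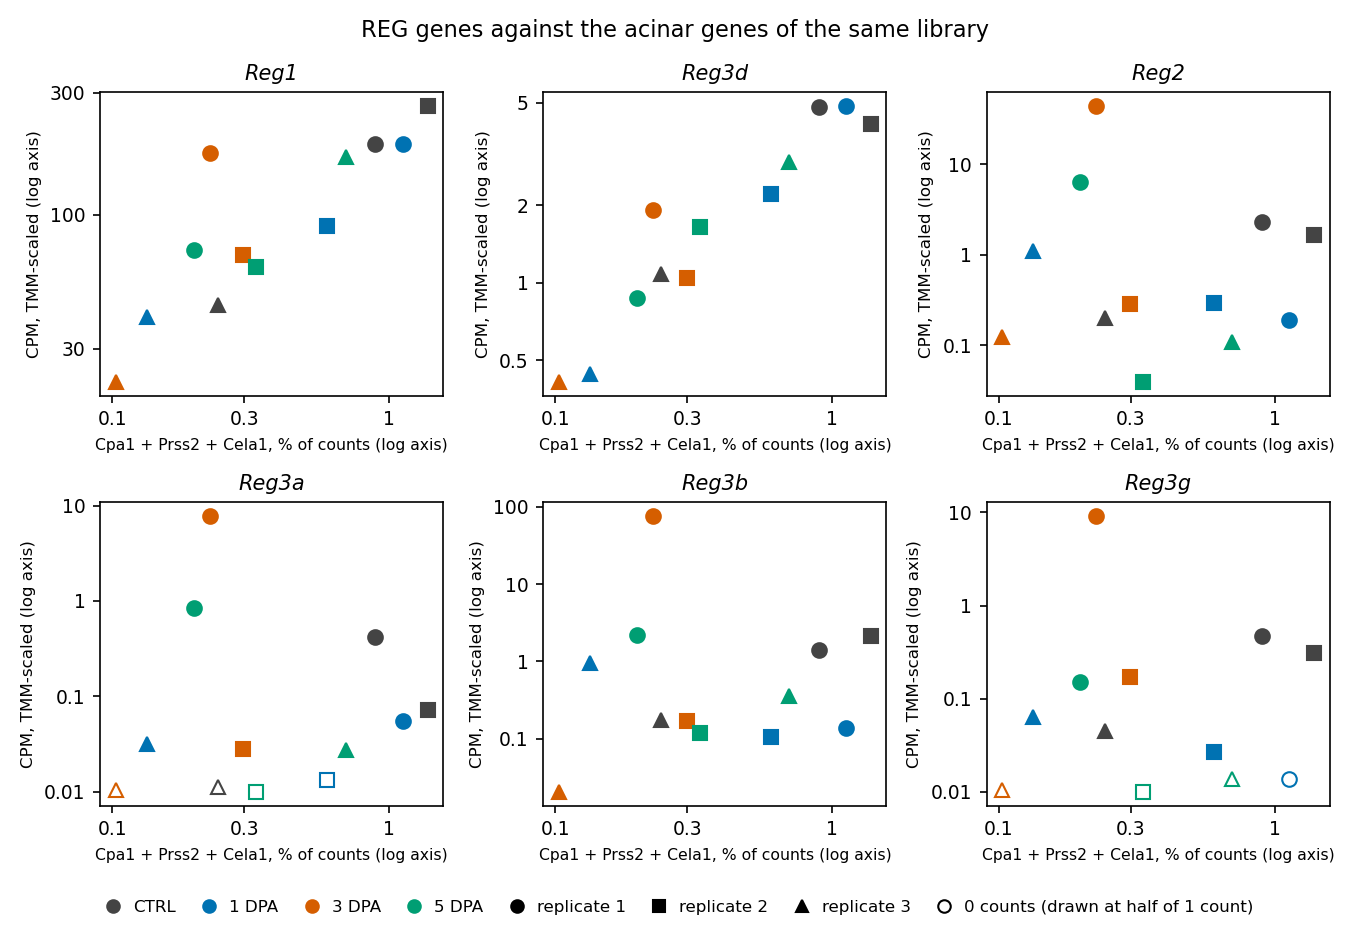
Level of each REG gene (TMM-scaled CPM, log axis) against the share of the library's counts taken by Cpa1, Prss2 and Cela1 (log axis), 1 point per library, coloured by group. Reg1 and Reg3d are lowest in the library with the lowest acinar share, 0.103%, and Reg1 is highest at the highest share, 1.38%, while 3 DPA replicate 1, at an acinar share of 0.225%, is the highest library for Reg2, Reg3a, Reg3b and Reg3g.

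The 3 genes whose log2 CPM was most like that of each member over the 12 libraries were as follows. For Reg3d they were Klk1, a pancreatic kallikrein, Try5, a trypsin, and Prss2 (Pearson r = 0.976, 0.968 and 0.968). For Reg1 they were Dmbt1, a secreted scavenger receptor of epithelia, Slc38a3, a glutamine transporter, and Phgdh, an enzyme of serine synthesis (r = 0.972, 0.955 and 0.938). These values moved by less than 0.05 when 3 DPA replicate 1 was left out (0.933 to 0.983). For Reg3b the nearest genes were Reg2 (0.942, and 0.883 without that library), Pmm1 (0.865 and 0.602) and Stbd1 (0.842 and 0.542). For Reg3g they were Reg3b (0.918 and 0.758), Reg2 (0.902 and 0.796) and Stbd1 (0.833 and 0.462). For Reg3a they were Reg2 (0.932 and 0.861), Ceacam2 (0.929 and 0.832) and Reg3b (0.918 and 0.771). For Reg2 they were Reg3b (0.942 and 0.883), Ceacam2 (0.767 and 0.506) and Fgd5 (0.742 and 0.767). Pmm1 encodes a phosphomannomutase, Stbd1 a glycogen-binding protein, Ceacam2 a cell adhesion molecule and Fgd5 an exchange factor of endothelial cells. The 12 points share groups and acinar content, and r over them is a description.

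Reg3b, the pancreatitis-associated protein, was found almost wholly in 1 library. Its counts were 54, 89 and 8 in CTRL, 5, 4 and 30 at 1 DPA, 3561, 6 and 1 at 3 DPA and 115, 6 and 13 at 5 DPA. That is 75.4 CPM (159 TPM) in 3 DPA replicate 1 against at most 2.19 CPM elsewhere, and 91.5% of all its counts lay in that library. The other 3 DPA libraries, at 0.170 and 0.0207 CPM, were below the CTRL median of 1.40 CPM.

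Reg3g, the antibacterial lectin best known from the intestine, had 18, 13 and 2 counts in CTRL and 0, 1 and 2 at 1 DPA. It had 432, 6 and 0 counts at 3 DPA and 8, 0 and 0 at 5 DPA, so 89.6% of its counts lay in 3 DPA replicate 1. A count of 0 allows up to 3 counts, or 0.0595 to 0.0828 CPM at the depths of the libraries with 0 Reg3g counts. Its level in 3 DPA replicate 1 was 9.14 CPM and at most 0.468 CPM in the rest.

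Reg3a had 16, 3 and 0 counts in CTRL, 2, 0 and 1 at 1 DPA, 367, 1 and 0 at 3 DPA and 44, 0 and 1 at 5 DPA. The share in 3 DPA replicate 1 was 84.4%, and the next library was 5 DPA replicate 1 (7.77 against 0.836 CPM). Reg2, the close relative of Reg1, had 89, 69 and 9 counts in CTRL, 7, 11 and 35 at 1 DPA, 2077, 10 and 6 at 3 DPA and 333, 2 and 4 at 5 DPA. In all, 78.3% of them lay in 3 DPA replicate 1, again ahead of 5 DPA replicate 1 (44.0 against 6.33 CPM). All 4 genes thus had 1 library of 12 far above the rest, with the other 3 DPA libraries inside or below the range of CTRL, whereas Reg1 had 14.5% and Reg3d 8.54% of its counts there.

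When the 17294 tested genes were ranked by their level in 3 DPA replicate 1 over the highest of the other 11 libraries, a measure chosen after these values were seen, the first 4 were Reg3b (34.5-fold), Reg3g (19.5-fold), Reg3a (9.29-fold) and Reg2 (6.95-fold). The next 4 were Krt17, a keratin (4.13-fold), Slc26a9, an anion transporter (3.95-fold), Fetub, a secreted protease inhibitor (3.83-fold), and Tspan1, a tetraspanin (3.49-fold). Reg1 ranked 11086 and Reg3d 15364. In all, 13 genes lay at least 3-fold above every other library in 3 DPA replicate 1, against 23 in CTRL replicate 1, 10 in 1 DPA replicate 3 and 0 to 3 in each of the other 9. A set of genes raised in 1 library was thus not particular to this one, and CTRL replicate 1 had a gene, Lyz1, 14.8-fold above the rest.

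**Figure D3:**
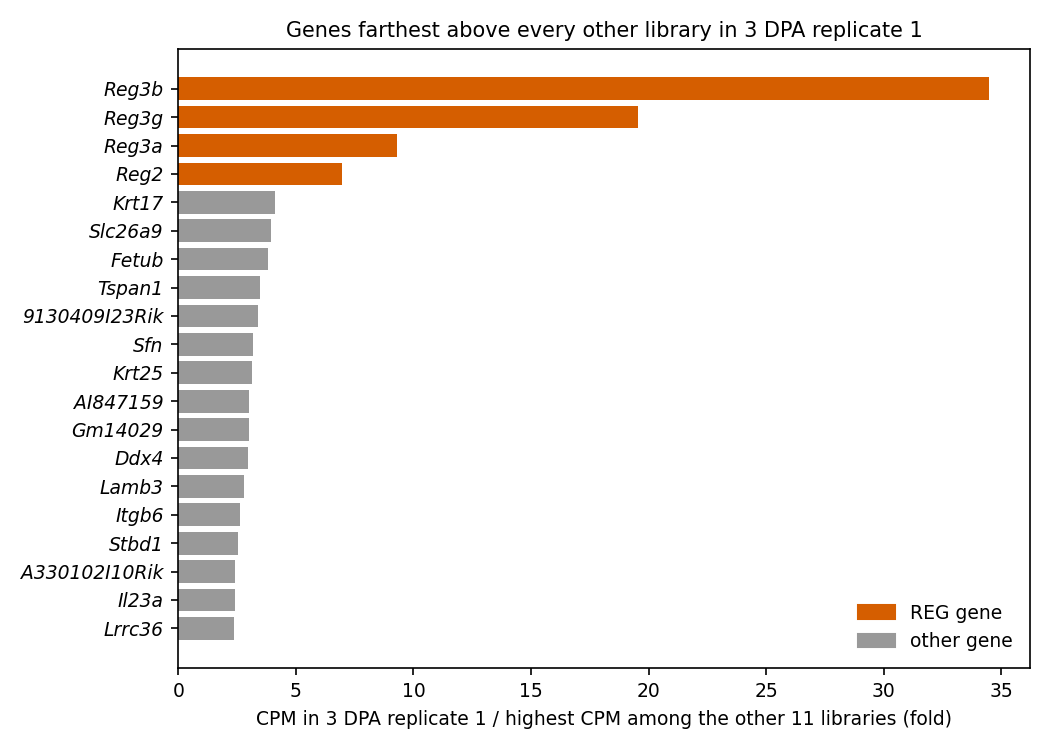
The 20 genes with the highest ratio of CPM in 3 DPA replicate 1 to the highest CPM among the other 11 libraries, as bars from 0, with REG genes in orange. Reg3b, Reg3g, Reg3a and Reg2 take the first 4 places, from 34.5- to 6.95-fold, ahead of Krt17 at 4.13-fold.

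Per 1000 counts of Cpa1, Prss2 and Cela1 in the same library, Reg3d ranged from 0.280 to 0.876 (median 0.419) and Reg1 from 14.9 to 79.3 (median 21.3). Their highest ratios were both in 3 DPA replicate 1, and Reg1 was next highest in 5 DPA replicate 1 (39.2) and 1 DPA replicate 3 (31.5). For Reg3b the ratio was 34.3 in 3 DPA replicate 1 against a median of 0.0644, followed by 1.18 in 5 DPA replicate 1 and 0.752 in 1 DPA replicate 3. Reg2 had the same 3 libraries on top, at 19.998, 3.41 and 0.878 (median 0.103). Reg3a reached 3.53 and 0.451, and Reg3g 4.16 and 0.0820, in 3 and 5 DPA replicate 1. The acinar shares of these 3 libraries were 0.225%, 0.198% and 0.134%. In 3 DPA replicate 1 the mix of the 3 acinar genes differed as well. Prss2 took 369 per 1000 of their counts there (270 to 289 in the other libraries) and Cela1 324 (393 to 426). In 3 DPA replicate 3, whose share was the lowest of the 12 at 0.103%, the ratios were 21.6 for Reg1, 0.120 for Reg2 and 0.0200 for Reg3b.

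Other epithelial and acinar genes in 3 DPA replicate 1 were as follows. The 10 duct markers summed to 0.0504% of counts, the highest of the 12 libraries (0.0375% to 0.0499% in the others), with none at 0. Krt19, the duct keratin, was at 22.8 CPM against 2.08 to 18.9 CPM, and Clu, a secreted chaperone of injured epithelia, was at 1159 CPM against 220 to 508 CPM. Of the 5 acinar transcription factors, Ptf1a and Gata4 were highest there, at 3.22 and 6.54 CPM against at most 2.54 and 5.81 CPM. The other 3 lay within the range of the other libraries, Rbpjl at 4.02 CPM (2.19 to 20.1), Bhlha15 at 54.8 CPM (25.0 to 76.2) and Nr5a2 at 5.38 CPM (2.19 to 6.60). The part of these genes in the REG levels was not tested. Macrophage markers (12) summed to 0.0433% and stromal markers (12) to 0.231% of counts, inside the ranges of the other libraries.

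Against CTRL, no REG gene passed the test at any time (0 of 6 each). Of all genes tested, 51.6% passed at 1 DPA, 12.6% at 3 DPA and 8.54% at 5 DPA. If only the groups compared enter the filter on low counts, Reg3a and Reg3g miss it at 1 and 5 DPA, which leaves 4 of 6 members. At 3 DPA Reg3a misses it, which leaves 5 of 6. For each of the 6 members the treated groups also overlapped CTRL, where 31.1% of all genes were higher and 23.5% lower without overlap at 1 DPA, 17.9% and 11.1% at 3 DPA, and 16.5% and 12.2% at 5 DPA. No member had an unadjusted p under 0.05 in these comparisons, limma-voom called none, and DESeq2 called none among members for which it gave an adjusted p. Of all genes, limma-voom called 46.3%, 12.7% and 8.75% at 1, 3 and 5 DPA, and DESeq2 54.6%, 16.8% and 13.9%. The median log2 fold change of the 6 genes was -1.55, 3.47 and -0.58 at 1, 3 and 5 DPA, against -0.05, -0.01 and 0.01 for all genes. At 3 DPA the fitted log2 fold changes were 4.35 ± 2.20 for Reg3b, 4.03 ± 2.16 for Reg3a, 3.51 ± 1.74 for Reg3g and 3.42 ± 2.18 for Reg2 (edgeR adjusted p between 0.251 and 0.393). Without 3 DPA replicate 1 they were -3.81, -3.45, -1.82 and -2.84, so the direction in each of the 4 genes rested on that library. Reg1 and Reg3d kept theirs, at -1.92 and -2.27. No member passed without that library (edgeR adjusted p from 0.257 to 0.558), where 7.84% of all genes did.

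At 1 DPA these 4 genes had log2 fold changes against CTRL of -1.41 ± 2.35 (Reg2), -2.35 ± 3.25 (Reg3a), -1.68 ± 2.46 (Reg3b) and -3.12 ± 2.62 (Reg3g) and edgeR adjusted p between 0.340 and 0.635. At 5 DPA the values were 0.67 ± 2.09, 0.92 ± 2.23, -0.43 ± 2.15 and -2.22 ± 2.20 (adjusted p between 0.588 and 0.929). Without 5 DPA replicate 1 they were -4.24, -3.44, -2.43 and -6.48, so the positive values of Reg2 and Reg3a rested on that library. Standard errors above 2 on the log2 scale mean that even large group differences could not be resolved for these genes with 3 libraries a group.

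Between 3 and 1 DPA, 1 member passed, where 45.1% of all genes did and 20.4% passed as higher. This was Reg3g, with a log2 fold change of 6.63 ± 2.33 (edgeR adjusted p = 0.0423). It rested on 438 counts at 3 DPA, 432 of them in replicate 1, and 3 counts at 1 DPA, a ratio of 118 after scaling (95% exact interval 40.1 to 574, for counting error only). The groups overlapped, since 3 DPA replicate 3 had 0 counts. Without 3 DPA replicate 1 the log2 fold change was 1.35 and the adjusted p 0.592, and the call was also lost when any 1 library of CTRL, 1 DPA or 5 DPA was left out (adjusted p from 0.0503 to 0.124). It stayed without 3 DPA replicate 2 or 3 (0.0312 and 0.0146). With the replicate number as a block, Reg3g did not pass (5.35, adjusted p = 0.0661), and Reg3a did (5.61, adjusted p = 0.0224).

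The remaining members at 3 against 1 DPA were at 6.38 ± 2.74 (Reg3a), 6.04 ± 2.50 (Reg3b), 4.83 ± 2.41 (Reg2), -0.27 ± 0.90 (Reg1) and -1.16 ± 0.86 (Reg3d), with edgeR adjusted p from 0.0776 to 0.826. Without 3 DPA replicate 1 all of these were negative, at -1.04, -2.10, -1.38, -1.22 and -1.80. If only 1 and 3 DPA enter the filter on low counts, 3 of 6 members pass it, and Reg3a, Reg3b and Reg3g do not. Other cell types differed between these groups as well: all 12 macrophage, 9 of 12 stromal, 7 of 8 endothelial and 6 of 10 duct markers passed and were higher at 3 DPA. Of all genes, 20.4% passed as higher there. The summed macrophage share was 0.0111% to 0.0144% of counts at 1 DPA and 0.0242% to 0.0433% at 3 DPA, and the duct share 0.0375% to 0.0397% and 0.0413% to 0.0504%. None of these markers was at 0 in a library, and their part in the REG values was not tested.

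**Figure D4:**
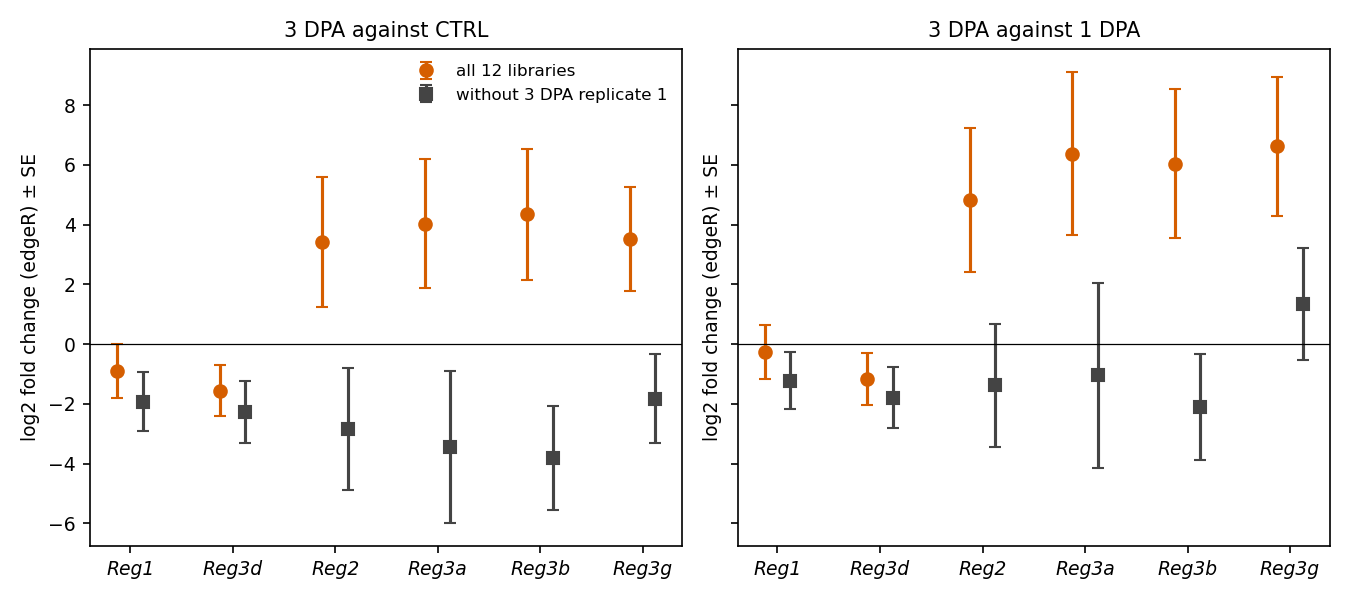
Log2 fold change ± SE (edgeR) of each REG gene at 3 DPA against CTRL (left) and against 1 DPA (right), with all 12 libraries (orange circles) and without 3 DPA replicate 1 (grey squares). Against CTRL, Reg2, Reg3a, Reg3b and Reg3g go from between 3.42 and 4.35 to between -3.81 and -1.82, and Reg1 and Reg3d are negative both ways.

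In the test over all 4 groups Reg3g passed (edgeR adjusted p = 0.0387) and the others did not (0.0823 to 0.774), where 57.4% of all genes passed. Without 3 DPA replicate 1 its adjusted p was 0.231. No member passed between 5 and 3 DPA (3.16% of all genes did) or between 5 and 1 DPA (56.1%), and 1 and 0 members had an unadjusted p under 0.05 there. When the acinar score was added to the fit, no member passed in any comparison. Of all genes, 48.1%, 7.96% and 6.26% passed in that fit at 1, 3 and 5 DPA against CTRL. Between 3 and 1 DPA 43.5% did, between 5 and 3 DPA 1.44%, between 5 and 1 DPA 56.1% and over the 4 groups 55.5%. With the score, the log2 fold changes of Reg1 and Reg3d at 3 DPA against CTRL turned from -0.91 and -1.56 to 0.80 and 0.34.

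The pathway that is known to induce Reg3 genes was read from 20 genes of the IL-6 family, the IL-22 receptor and STAT3 signalling, all tested. At 1 DPA 4 passed higher and 3 lower (29.2% and 22.4% of all genes did), at 3 DPA 3 higher and 1 lower (10.2% and 2.37%), and at 5 DPA 1 each way (5.87% and 2.67%). Among the ligands, Il11 was at 0.338 to 0.754 CPM in CTRL, 4.78 to 6.69 CPM at 1 DPA and 1.24 to 2.03 CPM at 3 DPA. It rose by 3.41 ± 0.30 on the log2 scale at 1 DPA and by 1.57 ± 0.30 at 3 DPA (edgeR adjusted p = 3.09e-06 and 0.00371), while its 1.04 ± 0.30 at 5 DPA did not pass (0.0511). No 1 or 3 DPA library overlapped CTRL. Lif rose from 0.843 to 2.18 CPM in CTRL to 5.74 to 8.45 CPM at 1 DPA and 4.89 to 7.48 CPM at 3 DPA, with log2 fold changes of 2.09 ± 0.32 and 1.95 ± 0.32 (adjusted p = 0.000187 and 0.00137). At 5 DPA its change was 1.56 ± 0.32 (adjusted p = 0.0129, and 0.0762 with only the compared groups in the fit).

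Lifr, which encodes the receptor of Lif, fell at all 3 times, by 0.86 ± 0.10, 0.67 ± 0.10 and 0.49 ± 0.10 on the log2 scale (edgeR adjusted p = 3.22e-05, 0.00105 and 0.0157). The last call was lost without 5 DPA replicate 1 (0.0752). Il22, the ligand of the IL-22 receptor, outside the rule for named genes and chosen after its values were seen, had 1, 4 and 2 counts in CTRL and 9, 8 and 13 at 1 DPA. It had 28, 11 and 11 counts at 3 DPA and 11, 10 and 7 at 5 DPA. No treated library overlapped CTRL in CPM. Il22 rose by 2.31 ± 0.60 at 1 DPA and 2.70 ± 0.58 at 3 DPA on the log2 scale (edgeR adjusted p = 0.00702 and 0.00876), and its 1.79 ± 0.60 at 5 DPA did not pass (0.0900). The call at 3 DPA was lost without 3 DPA replicate 1 (2.16, adjusted p = 0.0551) and with only the compared groups in the fit (2.69, 0.0515).

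In 3 DPA replicate 1, the library with the high REG counts, Il22 was at 0.593 CPM, the highest of the 12 libraries (0.0260 to 0.412 CPM in the others). Il11 was at 2.03 CPM, above the 1.24 and 1.63 CPM of 3 DPA replicates 2 and 3. Lif was at 6.33 CPM, between their 4.89 and 7.48 CPM, and Lifr at 69.2 CPM, below their 78.8 and 78.2 CPM. For replicates 1 to 3 of 3 DPA, Stat3 was at 264, 251 and 289 CPM (227 to 235 CPM in CTRL). Its target Socs3 was at 31.4, 26.6 and 49.1 CPM there, inside its CTRL range of 20.2 to 51.1 CPM, and at 15.4 to 23.1 CPM at 1 DPA. Il22ra1, a chain of the IL-22 receptor, was at 0.529, 0.368 and 0.207 CPM (0.222 to 1.97 CPM in CTRL). Il6 was at 0.127, 0.339 and 0.702 CPM (0.0480 to 0.546 CPM in CTRL). The part of these genes in the REG levels was not tested.

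Extl3, a glycosyltransferase proposed as a REG receptor, was at 77.1 to 84.2 CPM in CTRL and 53.8 to 69.5 CPM at 1 DPA, without overlap. It fell by 0.36 ± 0.09 on the log2 scale (edgeR adjusted p = 0.00555), one of the 22.4% of genes that passed lower at 1 DPA. Reg4, the family member outside the cluster, had 27 counts in all libraries together, 16 of them in CTRL replicate 1, and was not tested. Of the 5 acinar transcription factors, Bhlha15, a factor of secretory cells, passed at 1 DPA, with 64.6 to 76.2 CPM in CTRL and 25.0 to 47.0 CPM at 1 DPA (log2 fold change -0.96 ± 0.18, edgeR adjusted p = 0.00104), and none of the 5 passed at 3 or 5 DPA. In CTRL replicates 1 to 3 Bhlha15 was at 64.6, 76.2 and 68.3 CPM, while Cpa1, Prss2 and Cela1 took 0.894%, 1.38% and 0.242% of counts. The 22 acinar enzymes had 0 calls at each time, with median log2 fold changes of -0.48, -2.13 and -1.15. Of all genes, 51.6%, 12.6% and 8.54% passed at 1, 3 and 5 DPA. All 22 moved with the acinar score within groups, so they do not count as 22 separate observations.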

How the data were processed

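RNA of 12 islet libraries was extracted with RNeasy Mini columns and made into libraries with a QIAseq stranded mRNA kit, per the labels' protocols. The authors deposited whole-number read counts and TPM values per gene, per the file headers. The submitters' processing notes name build mm10. For the aligner, counter, annotation and use of strand, nothing is given in the sources used here. The 24 other columns of per-sample values were not used. Counts (17294 genes after filterByExpr, minimum count 10) were TMM-scaled, and edgeR's quasi-likelihood test was run (robust, 4 group means, all libraries) with Benjamini-Hochberg adjustment over all tested genes and a threshold of 0.05; standard errors were derived from its F statistic. TPM was used to compare levels between genes. The acinar score used a prior count of 2. The software was edgeR 4.0.16, DESeq2 1.42.0 and limma 3.58.1 under R 4.3.3, and the fit was tested on simulated counts.

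The members, gene lists, motifs and tests were chosen with earlier results of these data known. Named genes were the 6 members and 3 acinar genes; from each list, at most 3 genes that passed against CTRL with the smallest p, with other cell types given by counts and shares; and, for each member, the 3 genes with the highest r among 12876 of average log2 CPM of at least 1. Genes named for their level in 3 DPA replicate 1, and values of other listed genes, were chosen after values were seen. The labels do not pair replicate numbers across groups. Between 3 and 5 DPA, deviations from the group means correlated at 0.156, 0.187 and 0.326 for libraries of the same replicate number. No other 2 groups had all 3 correlations above 0.1. Libraries of different numbers were not compared, so these values do not show a pairing. Replicate libraries of each group differed beyond sampling noise. The alternatives are described in the closing section.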

Additional observations from a re-analysis of the deposited data

How the results depend on the processing

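Reg3g's call at 3 against 1 DPA and over the 4 groups did not hold throughout. The number of members called there, 1 each, was 0 with limma-voom, with no filter on low counts and with the acinar score in the fit, and 2 (Reg3b and Reg3g) without robust estimation, an alternative chosen after seeing the data. Of all genes, 43.2% passed at 3 against 1 DPA and 56.1% over the 4 groups with limma-voom. These shares were 31.3% and 41.1% without the filter, 43.5% and 55.5% with the acinar score and 45.7% and 57.9% without robust estimation. Leaving out 1 library gave 0 to 2 members called at 3 against 1 DPA, over the 4 groups and for the slope. Of all genes, 35.2% to 49.1%, 48.3% to 59.7% and 0.242% to 0.406% passed there. The replicate block left 1 member called in each, Reg3a instead of Reg3g at 3 against 1 DPA and over the 4 groups, and 0 members against CTRL. DESeq2 gave Reg3g no adjusted p, Reg3g missed the filter with only 1 and 3 DPA, and no DESeq2 slope was run. The cause was not tested. RLE scaling and both changes of library size left these counts as they were.

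Values that changed sign did so as follows. For Reg2 at 5 DPA against CTRL, the log2 fold change was -1.25 (limma-voom), -1.38 (replicate block) and -0.47 (acinar score). Slopes were 0.50 (Reg2), 0.58 (Reg3a) and 0.73 (Reg3b) with limma-voom, and 0.26 (Reg3a) and -3.04 (Reg3g) with the block. With the acinar score, Reg1 was 0.80, 0.33 and 0.87 and Reg3d 0.34, 0.14 and 0.49 at 3 DPA against CTRL, 5 DPA against CTRL and 3 against 1 DPA. Leaving out each library gave these ranges: at 1 DPA against CTRL, Cpa1 -1.23 to 0.13, Prss2 -1.28 to 0.10, Cela1 -1.28 to 0.10 and Reg3d -1.31 to 0.02; at 3 DPA, Reg2 -2.84 to 4.0, Reg3a -3.45 to 6.10, Reg3b -3.81 to 4.99 and Reg3g -1.82 to 4.11; at 5 DPA, Reg2 -4.24 to 1.25, Reg3a -3.44 to 3.00 and Reg3b -2.43 to 0.21. At 3 against 1 DPA they were -1.22 to 0.45 (Reg1), -1.38 to 5.94 (Reg2), -1.04 to 7.22 (Reg3a) and -2.10 to 7.69 (Reg3b), and for slopes -1.20 to 0.14 (Reg2), -0.86 to 1.54 (Reg3a), -0.72 to 0.56 (Reg3b) and -0.33 to 0.90 (Reg3g). In all, 1059 of 1132 values of single genes kept direction and side of the threshold. The number of signalling genes called at 1 DPA against CTRL was 11 instead of 7 without CTRL replicate 3. That setting called 54.7% of all genes, instead of 51.6%. At 5 DPA against CTRL, instead of 2, the number was 4 without CTRL replicate 1 and 1 without 5 DPA replicate 1. It was 5 with DESeq2 and 1 with only the compared groups. In that order, these settings called 12.1%, 2.64%, 13.9% and 3.73% of all genes at 5 DPA, instead of 8.54%.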
